A study of Mus musculus with 6 samples.

Results

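The 50 genes described here drive and carry out cell division. They were chosen by symbol, in 3 roles: 21 cyclins, cyclin-dependent kinases, kinase inhibitors and E2F and Rb family genes, 13 DNA replication genes and 16 mitosis genes. All 50 were among the 19618 genes with deposited counts and among the 15422 that passed the filter on low counts, so none was left out. The lowest count of any of them in any library was 29, for Cdkn1c.

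They were measured by RNA sequencing of polyadenylated RNA from tail skin keratinocytes, the epithelial cells of the epidermis, of mice aged 4 months. The 3 knockout mice carried K14cre, a Cre recombinase transgene under the promoter of keratin 14, a gene of basal keratinocytes, and were homozygous for a floxed Gpr161 allele. Gpr161 is a G protein-coupled receptor of the primary cilium that holds Hedgehog signalling down. The 3 controls had no K14cre per the labels. By genotype, 1 control was Gpr161Flox-Homozygous and 2 were Gpr161Flox-Heterozygous, so a floxed allele was present in both groups while Cre was present only in the knockout. The libraries are named by the tags of their columns: DE679, DE685 and DE688 for the knockout, DE680, DE684 and DE689 for the control. The column names do not tell which control was the homozygous one.

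A dividing cell passes through a growth phase, DNA synthesis, a second growth phase and mitosis. D-type cyclins with Cdk4 and Cdk6 inactivate the Rb proteins and so free E2F factors, which switch on replication genes, while cyclins A and B with Cdk1 and Cdk2 drive the later steps, and a complex of Foxm1, B-Myb and LIN proteins switches on mitosis genes through promoter elements called CHR. In the epidermis, division is largely a property of basal keratinocytes and of hair follicle cells, and Ccnd1 and Ccnd2 are known as targets of Hedgehog signalling in other settings.

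The libraries held 17157864 to 25344399 estimated reads assigned to genes. Levels are given as CPM, counts scaled to a common library total after TMM scaling, which corrects for differences in library composition. Counting of the whole Gpr161 gene does not check the labels, since the floxed part is not known here: it stood at 26.8, 33.6 and 25.9 CPM in the knockout and 30.2, 32.2 and 31.9 CPM in the control (log2 difference -0.13, SE 0.11, adjusted p = 0.553). Gli1, a direct Hedgehog target, rose from 9.15 ± 0.857 to 69.4 ± 4.42 CPM (SD, n = 3 in each group), a log2 difference of 2.93 (adjusted p = 1.8e-05). Ptch1, another direct target, rose from 37.1 ± 5.35 to 111 ± 14.01 CPM (log2 difference 1.58, adjusted p = 0.00228). The keratinocyte label was checked on Krt5 and Krt14, the keratins of basal cells, at 11196 to 15700 and 8847 to 11470 CPM, against summed levels of 2.08 to 7.11 CPM for 5 endothelial markers and 2.08 to 3.16 CPM for the 3 muscle markers measured. Summed markers of fibroblasts, melanocytes and immune cells were higher, at 37.8 to 143, 61.0 to 128 and 41.1 to 161 CPM.

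None of the 50 genes passed the test. With edgeR's quasi-likelihood test and Benjamini-Hochberg adjustment over all genes, 0 of 50 reached an adjusted p of 0.05, while 247 of the 15422 genes tested, 1.6%, did (192 higher and 55 lower in the knockout). DESeq2, limma-voom and limma on the authors' normalized values also called 0 of 50. At an unadjusted p under 0.05 edgeR gave 6 of 50, DESeq2 3 and limma-voom 5. The edgeR count was 12% of the members, with 4 higher and 2 lower, beside 19% of all genes tested. The knockout and control libraries did not overlap in CPM for 6 of the 50 genes, again 12%, beside 25.6% of all genes. The smallest adjusted p among the 50 was 0.151, for Rb1.

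The differences were small. Log2 differences, knockout minus control, ran from -0.27 for Rb1 to 0.59 for Cdkn1c, with a median of 0.016 beside -0.0036 over all genes tested, and 28 were above 0 and 22 below. In size, 46 of the 50 (92%) lay within 0.2 of 0 on the log2 scale, beside 60.1% of all genes, and the median size was 0.066 against 0.15. For 48 of the 50 the 95% confidence interval lay inside 1.5-fold in either direction, beside 59.7% of all genes. The exceptions were Ccnd1 and Cdkn1c. Low-count genes have wide intervals, all 50 genes but Cdkn1c averaged above 4 CPM, and the other genes were not matched to them in level. The called genes were not all large changes: the smallest had a size of 0.27 (Daam1) and 79 of the 247 were smaller than the difference of Cdkn1c.

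**Figure D1:**
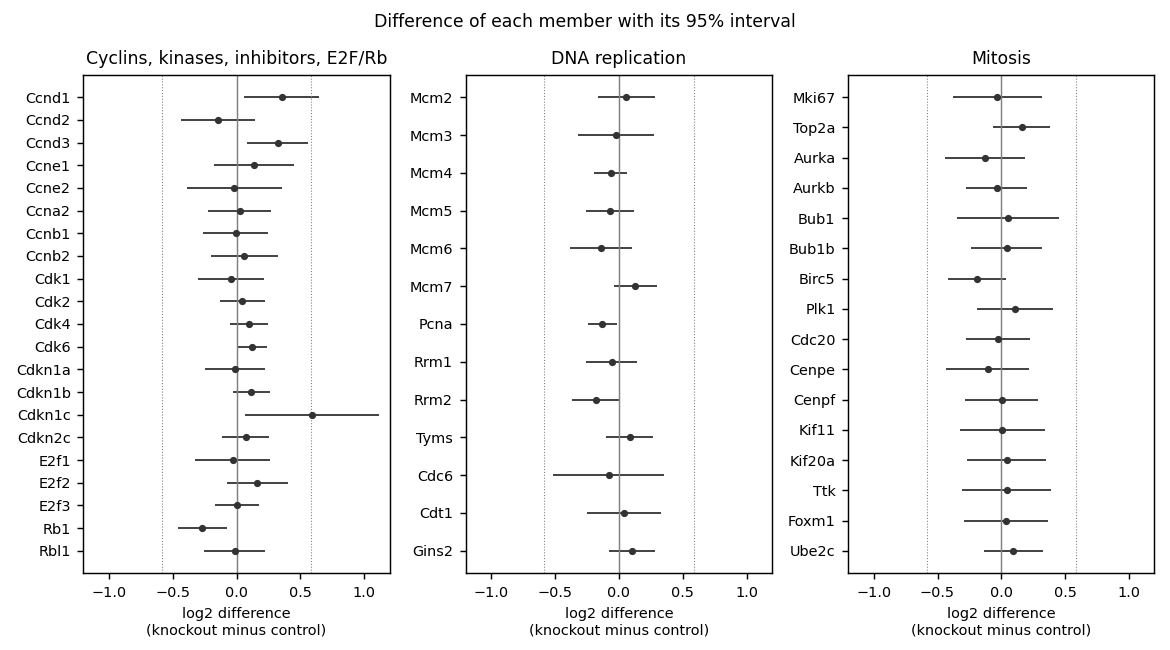
Log2 difference (x axis, knockout minus control) of each of the 50 genes, by role, as a point with its 95% confidence interval from edgeR as a line; the dotted lines mark 1.5-fold in either direction. Most intervals span 0 and stay inside the dotted lines, and only Ccnd1 and Cdkn1c reach past 1.5-fold.

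**Figure D2:**
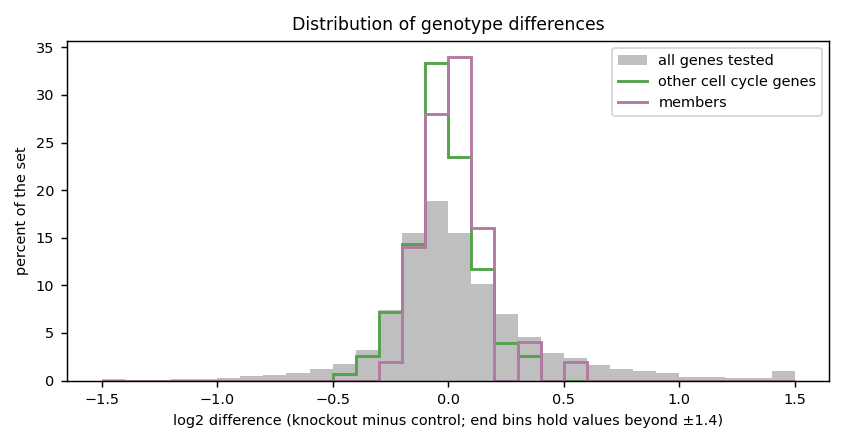
Percent of genes (y axis) in each bin of the log2 difference (x axis, knockout minus control) for all 15422 genes tested (grey), the 50 members (purple outline) and 153 other cell cycle genes tested (green outline). Both outlines are narrower than the grey distribution, with 92% of the members within 0.2 of 0.

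Promoter sequences were compared between the roles. RefSeq's table for GRCm38.p6 held 39 of the 50 genes, and the 250 bases before the start were searched on both strands for CHR elements (TTTGAA or TTCGAA), E2F sites (TTTGGCGC, TTTCCCGC, TTTCGCGC or TTTGCCGC), CCAAT boxes, which bind NF-Y, and the GLI site of Hedgehog signalling (GACCACCCA). The 4 shown stand for the 2 kinds of element: Mki67 and Cdc20, mitosis genes with CHR, Mcm6, a replication gene with E2F sites, and Cdk1, a kinase gene with both. Each runs 5′ to 3′ on the gene's strand, and capitals mark the CHR, E2F and CCAAT matches.
Mki67, chr7:135716380-135716629, strand -: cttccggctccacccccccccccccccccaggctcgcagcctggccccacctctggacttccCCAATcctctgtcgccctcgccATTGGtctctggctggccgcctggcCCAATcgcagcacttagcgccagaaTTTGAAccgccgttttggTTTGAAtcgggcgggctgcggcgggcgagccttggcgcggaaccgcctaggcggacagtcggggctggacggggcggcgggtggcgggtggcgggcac
Cdc20, chr4:118437344-118437593, strand -: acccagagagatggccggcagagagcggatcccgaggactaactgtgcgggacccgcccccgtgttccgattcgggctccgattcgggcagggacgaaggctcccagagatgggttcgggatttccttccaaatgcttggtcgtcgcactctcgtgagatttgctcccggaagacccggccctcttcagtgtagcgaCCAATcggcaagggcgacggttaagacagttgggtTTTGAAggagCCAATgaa
Mcm6, chr1:128359706-128359955, strand -: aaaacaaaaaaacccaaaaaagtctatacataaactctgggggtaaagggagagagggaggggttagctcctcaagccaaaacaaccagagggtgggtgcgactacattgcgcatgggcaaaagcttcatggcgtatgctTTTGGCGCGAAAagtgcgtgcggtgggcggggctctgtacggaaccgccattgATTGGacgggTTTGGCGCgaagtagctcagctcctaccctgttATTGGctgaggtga
Cdk1, chr10:69352913-69353162, strand -: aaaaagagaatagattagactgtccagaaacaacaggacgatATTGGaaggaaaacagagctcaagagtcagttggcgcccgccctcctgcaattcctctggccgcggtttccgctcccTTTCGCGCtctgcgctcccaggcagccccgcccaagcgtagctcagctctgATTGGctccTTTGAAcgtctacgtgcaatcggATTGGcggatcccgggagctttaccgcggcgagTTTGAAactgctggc

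In Mki67 the CHR matches begin 116 and 98 bases before the start, after 3 CCAAT boxes. Cdc20 has its CHR match 18 bases before the start, between CCAAT boxes. Mcm6 has 3 E2F matches, 2 of which overlap in 1 run of capitals because the letters read as a site on each strand. Cdk1 has an E2F match 131 bases before the start and CHR matches 71 and 15 bases before it. These starts are RefSeq's and differ from the gene positions used elsewhere here. By those positions Cdc20 ends at 118437352 and Cdk1 at 69352938, so in both the match nearest the start lies inside the gene. The Mki67 and Mcm6 windows lie wholly outside the genes. The sequence taken past the Mcm6 start was not found in annotated transcripts of Mcm6, while that of Mki67, Cdc20 and Cdk1 was. Among the mitosis genes, 6 of 13 (46.2%) held CHR (Bub1b, Cdc20, Kif11, Mki67, Top2a and Ube2c), 12 of 13 a CCAAT box and 0 of 13 an E2F site. Among the replication genes, 4 of 11 (36.4%) held an E2F site (Cdc6, Mcm5, Mcm6 and Mcm7), 2 of 11 CHR and 8 of 11 CCAAT. Among the regulators, 4 of 15 held CHR, 4 of 15 an E2F site and 8 of 15 CCAAT. Over all 27025 genes of the table the shares were 19.6% for CHR, 2.16% for E2F and 37.5% for CCAAT. A gene with several windows was counted once, with a match in any of them. The GLI letters were found for 0 of 39 members and for 0.255% of all genes of the table. A match describes letters in the window and not binding.

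The D-type cyclins, which start the cycle in response to outside signals, differed in sign from one another. Ccnd1 (chr7:144929931-144939925, GRCm38) stood at 236, 207 and 267 CPM in the knockout libraries DE679, DE685 and DE688 and at 216, 162 and 178 CPM in the controls DE680, DE684 and DE689. The groups overlapped, because DE680 was above DE685. The means were 237 ± 30.2 and 185 ± 28.0 CPM (SD, n = 3 each), a log2 difference of 0.35 (SE 0.13, 95% interval 0.06 to 0.65, adjusted p = 0.198). DESeq2 and the fit with sex as a term gave adjusted p of 0.0659 and 0.0770.

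Ccnd2 (chr6:127125162-127152193), the most abundant cyclin here, stood at 511, 616 and 434 CPM in the knockout and 631, 554 and 543 CPM in the control. The knockout libraries spread on both sides of 2 of the controls, and the highest value of all was in DE680. The log2 difference was -0.15 (SE 0.13, 95% interval -0.44 to 0.15, adjusted p = 0.567). Ccnd3 (chr17:47505051-47599691) stood at 41.6, 43.7 and 38.4 CPM in the knockout and 37.4, 29.4 and 32.1 CPM in the control. All knockout values were above all controls, by a narrow gap between DE688 and DE680. The log2 difference was 0.32 (SE 0.10, adjusted p = 0.159).

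Their partner kinases differed less. Cdk6 (chr5:3341485-3531008) stood at 98.5, 94.7 and 95.6 CPM in the knockout and 89.3, 89.2 and 87.0 CPM in the control. The groups did not overlap, yet the knockout mean was only 1.09-fold the control mean (log2 difference 0.12, SE 0.05, adjusted p = 0.256). Cdk4, the other partner, stood at 113 to 117 CPM against 101 to 117 CPM (log2 difference 0.10, 95% interval -0.05 to 0.25). Levels per kilobase allow genes to be compared, with length taken as the merged exons of all annotated coding transcripts. This length can exceed that of the transcripts present, so ratios between genes are approximate. The order of the D-type cyclins was Ccnd2 at 81.7, Ccnd1 at 56.5 and Ccnd3 at 15.2 CPM per kb. Ccnd2 was above Ccnd1 in 5 of 6 libraries and their ranges overlapped, while Ccnd1 was above Ccnd3 in 6 of 6. Cdk4 stood at 54.5 CPM per kb and was above Cdk6, at 8.02, in every library. Exons of all 3 D-type cyclins, Cdk4 and Cdk6 overlap a gene on the other strand, and whether counting used strand is not given in the sources used here, so reads of the partner cannot be told apart.

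**Figure D3:**
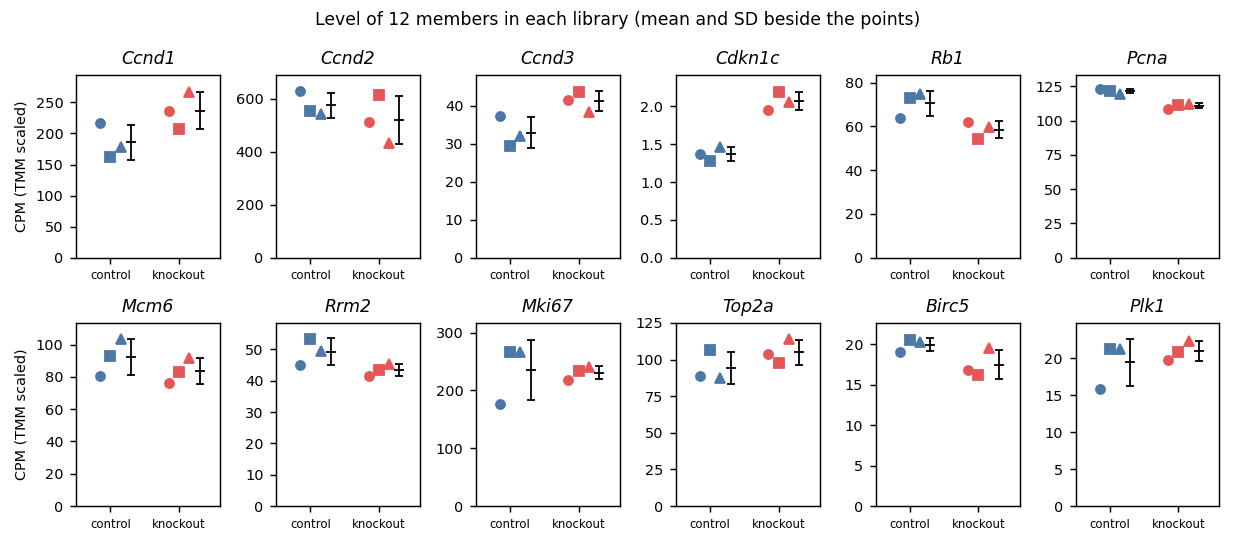
CPM (y axis, from 0) of 12 of the 50 genes in each control (blue) and knockout (red) library, with the mean and SD as bars beside the points; circle, square and triangle stand for DE680, DE684 and DE689 in the control and DE679, DE685 and DE688 in the knockout. Ccnd3 and Cdkn1c were higher and Rb1 and Pcna lower in every knockout library, and the Mki67 and Plk1 circles of the control lie below the other points.

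The cyclins and kinases of later steps differed little between the groups. Cyclins E (Ccne1, Ccne2), A (Ccna2) and B (Ccnb1, Ccnb2) with Cdk1 and Cdk2 had log2 differences from -0.05 for Cdk1 to 0.13 for Ccne1, a median of 0.023, and adjusted p from 0.625 to 0.980. The groups overlapped for all 7, while they stood apart for 25.6% of all genes. All 7 had their lowest value in the control library DE680. Cdk1, the mitotic kinase, stood at 28.0, 28.4 and 29.7 CPM in the knockout and 24.7, 31.8 and 32.3 CPM in the control, so the 3 knockout values lay between DE680 and the other controls. Ccnb1, its cyclin, stood at 36.4, 36.9 and 35.0 CPM against 32.7, 42.6 and 33.5 CPM. Per kilobase, Ccnb2 at 15.2, Ccnb1 at 14.5 and Ccna2 at 12.02 CPM per kb had overlapping ranges over the libraries. Within libraries, Ccnb2 was above Ccnb1 in 4 of 6 and Ccnb1 above Ccna2 in 6 of 6. Ccne1 at 3.76 was below Ccna2 in 6 of 6 libraries.

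For the kinase inhibitors, which hold the cycle back, the groups did not overlap in 1 of 4 genes. That share, 25%, was near the 25.6% of all genes. Cdkn1c, which encodes p57 (chr7:143458339-143461050), stood at 1.95, 2.19 and 2.06 CPM in the knockout and 1.38, 1.27 and 1.47 CPM in the control. Every knockout library was above every control. The log2 difference of 0.59 was the largest of the 50 (SE 0.23, 95% interval 0.06 to 1.11, adjusted p = 0.224), and it rests on the lowest counts of the 50. It was 0.37 with limma on the normalized values plus 1.

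Cdkn1a, which encodes p21, the inhibitor induced by p53, stood at 282, 254 and 295 CPM in the knockout and 317, 246 and 273 CPM in the control. The groups overlapped fully (log2 difference -0.0092, SE 0.10, 95% interval -0.24 to 0.23). Cdkn1b, which encodes p27, stood at 106, 109 and 102 CPM against 97.6, 103 and 92.4 CPM. Only DE688, just below DE684, broke the order, and the log2 difference was 0.12 (SE 0.06, adjusted p = 0.350). Cdkn2c, which encodes p18, an inhibitor of Cdk4 and Cdk6, had a log2 difference of 0.07 (95% interval -0.11 to 0.25). Per kilobase, Cdkn1a at 102 was 4.58-fold above Cdkn1b, followed by Cdkn2c at 12.7 and Cdkn1c at 0.886 CPM per kb, an order found in all 6 libraries.

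Among the E2F and Rb family genes, Rb1 had the smallest adjusted p of the 50. Rb1 (chr14:73183673-73325822), whose protein restrains E2F, stood at 62.0, 54.1 and 59.6 CPM in the knockout and 64.0, 73.1 and 74.7 CPM in the control. All knockout values were below all controls, although DE679 and DE680 were close. The means were 58.5 ± 4.05 and 70.6 ± 5.78 CPM (SD, n = 3 each), a log2 difference of -0.27 (SE 0.08, 95% interval -0.46 to -0.08, adjusted p = 0.151). Its relative Rbl1, which encodes p107, had a log2 difference of -0.01 (95% interval -0.25 to 0.23). The activator E2Fs had log2 differences of -0.03 for E2f1, 0.16 for E2f2 and 0.01 for E2f3. The smallest adjusted p was 0.420 (E2f2), and the groups overlapped.

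The replication genes lay slightly below 0 more often than above it, at 8 of 13 with a median of -0.06. The median was 0.03 without DE684, 0.02 without DE689 and -0.12 without DE680. Pcna (chr2:132249162-132253314), the sliding clamp of DNA polymerases, stood at 109, 111 and 112 CPM in the knockout and 123, 122 and 120 CPM in the control. The groups did not overlap, and Pcna had the smallest spread within groups of the 50 (SD 0.022 on the log2 scale). The knockout mean was 0.913-fold the control mean (log2 difference -0.13, SE 0.05, 95% interval -0.25 to -0.02, adjusted p = 0.215).

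Ribonucleotide reductase makes the building blocks of DNA. Its small subunit Rrm2 stood at 41.6, 43.4 and 45.3 CPM in the knockout and 44.9, 53.4 and 49.6 CPM in the control. DE688 lay just above DE680, so the groups overlapped (log2 difference -0.18, SE 0.08, adjusted p = 0.273). The large subunit Rrm1 stood at 102, 96.6 and 96.5 CPM against 91.6, 115 and 101 CPM, with DE680 lowest and DE684 highest (log2 difference -0.06, SE 0.09). Tyms, which makes thymidylate, had a log2 difference of 0.09 (95% interval -0.10 to 0.27). Pcna at 76.5 CPM per kb was 3.04-fold above Rrm1.

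The 6 MCM genes encode the ring of the replicative helicase. Their log2 differences ran from -0.14 for Mcm6 to 0.13 for Mcm7, with a median of -0.04. Mcm7 (chr5:138164583-138172422) stood at 66.8, 66.8 and 76.2 CPM in the knockout and 61.5, 65.1 and 65.3 CPM in the control. The groups did not overlap, with a gap of little more than 1 CPM, and DE688 was the only value apart from the rest (adjusted p = 0.366, and a log2 difference of 0.06 without DE688). Mcm6 (chr1:128331590-128359664) stood at 75.9, 83.1 and 91.8 CPM against 80.7, 92.7 and 103 CPM, with overlapping groups. Mcm4 stood at 70.3, 71.7 and 72.9 CPM against 74.3, 72.3 and 77.9 CPM, where DE688 lay above DE684. Mcm2, Mcm3 and Mcm5 had log2 differences of 0.06, -0.02 and -0.07. The MCM subunits act in equal numbers, and their RNA levels ran from 15.2 CPM per kb for Mcm2 to 22.6 for Mcm7. Mcm7 was 1.49-fold above Mcm2 per kilobase and higher in 6 of 6 libraries.

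The loading factors Cdc6 and Cdt1, which place the MCM ring on DNA, had log2 differences of -0.08 (95% interval -0.51 to 0.35) and 0.04 (95% interval -0.25 to 0.33). Gins2, a subunit of the GINS complex that activates the helicase, stood at 63.6, 57.9 and 65.7 CPM in the knockout and 62.2, 58.04 and 54.1 CPM in the control, with overlapping groups (log2 difference 0.10, SE 0.08). Per kilobase Gins2 stood at 15.5, Cdt1 at 12.1 and Cdc6 at 1.034 CPM per kb.

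Among the mitosis genes 0 of 16 had an unadjusted p under 0.05, beside 19% of all genes. The groups stood apart for 0 of 16, beside 25.6% of all genes. Log2 differences of the mitosis genes ran from -0.19 for Birc5 to 0.16 for Top2a, with a median of 0.02. Between libraries of 1 group they had a median SD of 0.19 on the log2 scale beside 0.11 for replication, 0.14 for regulators and 0.15 for all genes. The largest spread of the 50 was that of Mki67.

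Mki67 (chr7:135689784-135716361), which encodes the proliferation antigen Ki-67, stood at 218, 234 and 240 CPM in the knockout and 176, 266 and 266 CPM in the control. The knockout libraries lay close together, between DE680 and the other controls. The means were 231 ± 11.4 and 236 ± 52.0 CPM (SD, n = 3 each), a log2 difference of -0.03 (SE 0.15, 95% interval -0.38 to 0.32, adjusted p = 0.935), so a change up to 1.25-fold higher or down to 0.769-fold was not resolved. Top2a (chr11:98992943-99024189), the topoisomerase that untangles chromosomes, stood at 104, 97.3 and 114 CPM against 88.6, 107 and 87.3 CPM. The groups overlapped through DE684 (log2 difference 0.16, SE 0.10, 95% interval -0.06 to 0.38). Foxm1, a transcription factor of mitosis genes, had a log2 difference of 0.04 (95% interval -0.29 to 0.36).

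The mitotic kinases and their partner followed. Aurora A (Aurka) works at spindle poles, and stood at 9.58, 11.4 and 9.61 CPM in the knockout and 9.72, 12.3 and 11.4 CPM in the control, with overlapping groups (log2 difference -0.13, SE 0.14). Plk1, the polo kinase, stood at 19.7, 20.8 and 22.4 CPM against 15.8, 21.3 and 21.3 CPM, again with DE680 apart (log2 difference 0.11, SE 0.13). Birc5 encodes survivin, which acts with Aurora B. Birc5 (chr11:117849251-117855743) stood at 16.7, 16.2 and 19.5 CPM against 19.1, 20.5 and 20.3 CPM, where DE688 lay above DE680 and the other knockout values lay below all controls (log2 difference -0.19, SE 0.10, 95% interval -0.42 to 0.04, adjusted p = 0.335). Aurkb had a log2 difference of -0.04 and, per kilobase, was 2.00-fold above Aurka.

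At the kinetochore, the motor Cenpe stood at 19.8, 19.9 and 20.1 CPM in the knockout and 16.9, 22.7 and 24.8 CPM in the control. The knockout libraries were almost identical while the controls spread on both sides of them (log2 difference -0.11, SE 0.14). Cenpf and the checkpoint genes Bub1, Bub1b and Ttk had log2 differences of 0.0021, 0.05, 0.04 and 0.04, and none had an adjusted p below 0.880. The spindle motors Kif11 and Kif20a had log2 differences of 0.0087 and 0.04. Ube2c, which supplies ubiquitin to the anaphase-promoting complex, stood at 19.5, 18.8 and 21.1 CPM against 17.9, 20.5 and 17.2 CPM, with overlapping groups (log2 difference 0.09, SE 0.10). Its activator partner Cdc20 had a log2 difference of -0.03. Cdc20 averaged 44.8 CPM over the 6 libraries and Ube2c 19.2 CPM. Per kilobase Cdc20 stood 3.39-fold above Ube2c, a ratio that rests on merged lengths of 1.79 and 2.6 kb. Exons of both overlap a gene on the other strand, Elovl1 for Cdc20 and Tnnc2 for Ube2c, whose reads cannot be told apart without the strand setting.

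Over the libraries, 1 control held the lowest value of many members. DE680 had the lowest value for 26 of the 50 genes (52%), beside 14.7% of all genes. This was so for 11 of 16 mitosis genes, 6 of 13 replication genes and 9 of 21 regulators. The median level of the mitosis genes in DE680 was -0.27 on the log2 scale relative to the mean of the 6 libraries. The same median was 0.11 in DE684, 0.12 in DE689, -0.06 in DE679, -0.03 in DE685 and 0.11 in DE688, and it was 0.0067 over all genes in DE680. The other 61 mitosis genes, which are not among the 50, were lowest in DE680 in 39 cases (63.9%), the other 53 replication genes in 22 (41.5%) and the other 39 regulators in 10 (25.6%), as many as in DE688.

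**Figure D4:**
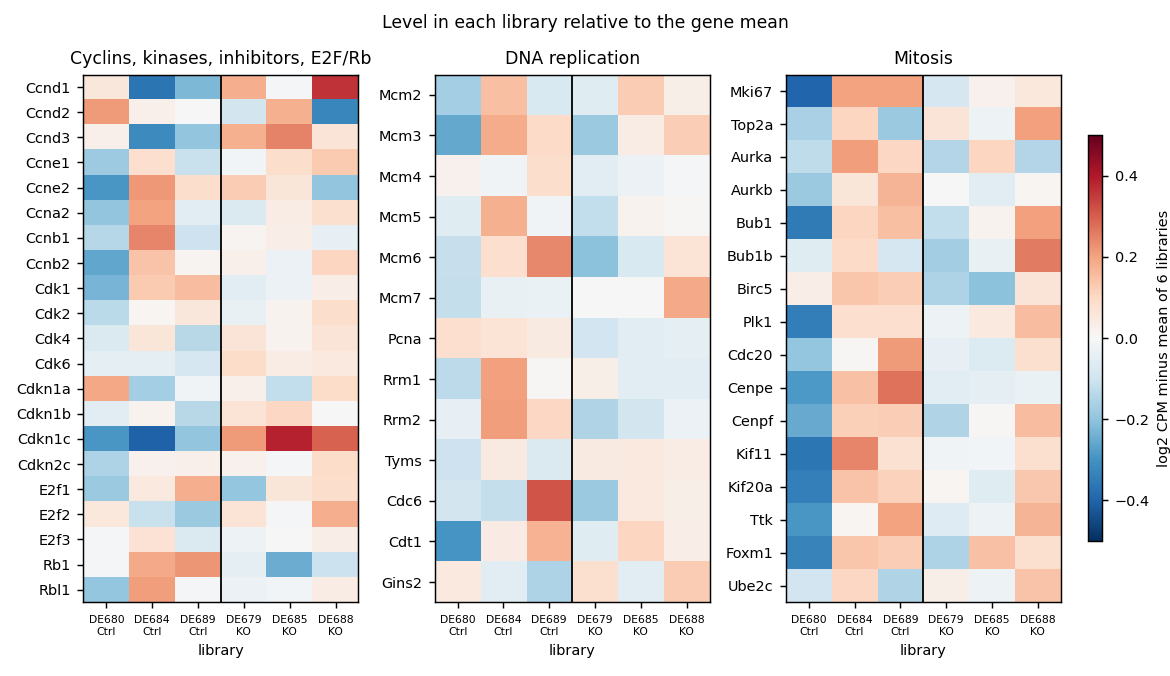
Level of each of the 50 genes in each library as log2 CPM minus the gene's mean over the 6 libraries (colour, red higher and blue lower), controls to the left of the line and knockouts to the right. The column of DE680 is blue for most mitosis genes, and DE680 is lowest in 11 of these 16.

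**Figure D5:**
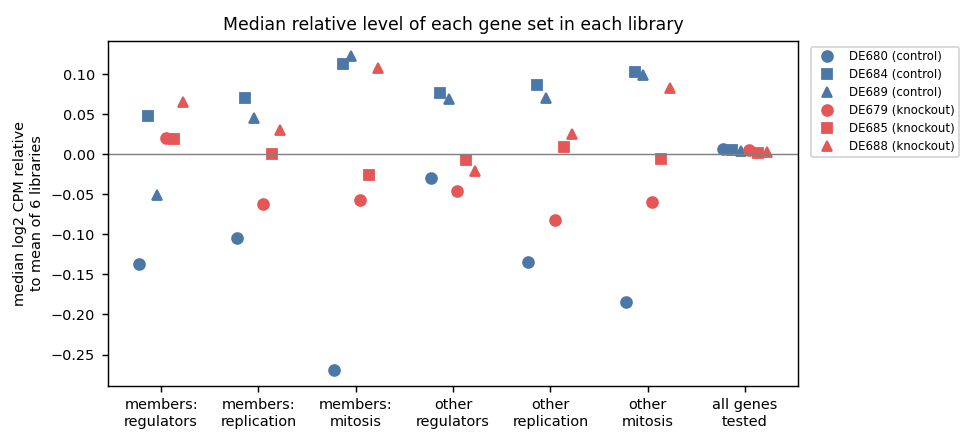
Median of the log2 CPM relative to the gene mean (y axis) for each gene set (x axis) in each library, controls blue and knockouts red. The DE680 circle lies at -0.27 for the mitosis members and near 0 for all genes tested.

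Without DE680 the median difference of the mitosis genes turned from 0.02 to -0.11 and that of all 50 from 0.016 to -0.08, and 0 of 50 were called. DE680 held 23074226 reads, inside the range of the other libraries, and its summed levels of 8 basal keratinocyte markers, 33776 CPM, and of 10 differentiation markers, 39590 CPM, lay inside the ranges of the other libraries (28828 to 36841 and 27842 to 54065 CPM). Its summed immune markers, at 138 CPM, and melanocyte markers, at 61.0 CPM, stood beside 41.1 to 161 and 81.8 to 128 CPM in the others, and its fibroblast markers, at 37.8 CPM, beside 47.1 to 143 CPM. The melanocyte sum was the lowest of the 6 libraries. So was the fibroblast sum, but without Dcn it was 17 CPM in DE680, inside the range of 12.7 to 39.6 CPM over the 6 libraries. The part of these levels in the DE680 pattern was not tested. In RNA of mixed cells, fewer dividing cells and less of a transcript per cell cannot be told apart.

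Markers of other cells had these values in the same libraries. Of 7 fibroblast markers Dcn rose, from 31.9 ± 10.1 to 119 ± 6.19 CPM (SD, n = 3 each), and of 6 hair follicle bulge markers Nfatc1 rose, from 108 ± 5.21 to 208 ± 29.3 CPM. The other lists had 0 genes called. The fibroblast sum of 129 to 143 CPM in the knockout and 37.8 to 80.2 CPM in the control was mostly Dcn: the other 6 markers summed to 15.4 to 19.2 CPM and 12.7 to 39.6 CPM, and Col1a1, Col1a2 and Col3a1 had log2 differences of -0.38, -0.42 and -0.54. Summed bulge markers were 2094 to 2495 CPM in the knockout and 1608 to 1886 CPM in the control. Most of this sum was Krt15, also a basal marker, with means of 1881 and 1443 CPM. Of the 6 bulge markers 5 had log2 differences above 0, with a median of 0.46 over the list, and Cd34 had -0.29. All 10 differentiation markers had log2 differences below 0, with a median of -0.29, and the 8 basal markers had a median of 0.11. All 8 melanocyte markers and all 9 immune markers tested had log2 differences above 0, with medians of 0.53 and 0.50. All 4 endothelial markers tested had differences below 0, with a median of -1.001, at the low levels given above. Of the 10 hair follicle matrix and shaft markers tested 5 had log2 differences above 0, with a median of -0.02 that hides a wide range. They ran from -0.26 for Dlx3 to 1.43 for Krt33a, and Lef1 had 1.39. Of the 6 sebaceous markers 1 had a difference above 0, with a median of -0.05, and Mgst1 had -0.32. Both muscle markers tested had differences below 0, with a median of -0.22. Their part in the values of the cell cycle genes was not tested.

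Other genes of the same processes also had small differences. Of 155 further cell cycle genes, 153 could be tested and 0 were called. At an unadjusted p under 0.05 there were 11 (3 higher and 8 lower), 7.19% beside the 19% of all genes, and the groups stood apart for 18, 11.8% beside 25.6%. Median log2 differences were -0.03 for 39 regulators, -0.03 for 53 replication genes and -0.0026 for 61 mitosis genes. DESeq2 also called 0 of the 153.

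In each of these lists the 3 genes with the smallest p are given. Among regulators these were Lin54, a DNA-binding subunit of the complex that reads CHR elements, at 28.7 ± 1.21 CPM against 36.6 ± 4.52 CPM (log2 difference -0.35, adjusted p = 0.132), Ccnf, a cyclin of a ubiquitin ligase (0.34, adjusted p = 0.179), and Fbxw7, which targets cyclin E for destruction (-0.25, adjusted p = 0.179). Among replication genes the origin recognition genes Orc4 and Orc6 had log2 differences of -0.26 and -0.24, with all 3 knockout values below all 3 controls in each (adjusted p = 0.114 and 0.133). Pold1, the catalytic subunit of polymerase delta, stood at 31.2 ± 1.84 CPM against 25.3 ± 1.79 CPM (log2 difference 0.31, adjusted p = 0.127). Among mitosis genes, the kinetochore gene Cenpi had a log2 difference of -0.47 (SE 0.17, adjusted p = 0.197), the cytokinesis gene Anln -0.20 (adjusted p = 0.237) and the spindle gene Nusap1 0.15 (adjusted p = 0.394). Orc4, at 0.114, had the smallest adjusted p of the 153.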

How the data were processed

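The labels describe 6 libraries, 3 per genotype, made with a stranded polyadenylated RNA kit. Per the submitters' processing notes, bcl2fastq 2.20, cutadapt 1.18, STAR 2.7.0f, Partek and the build mm10 were used. The counting settings, strand use and annotation are not given in the sources used here. The authors deposited estimated counts per gene, of which 53.5% to 58.3% per library were within 1e-06 of a whole number, and a normalized signal per gene. The deposited signal equals the counts multiplied by 1 constant per library, with 0.001 added, and its column sums were 969805 to 1026369.

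The test had been laid out for counts, so the estimates were first rounded to integers. Genes passed edgeR's filterByExpr defaults, TMM factors were 0.975 to 1.030, and genotype was tested with glmQLFit and glmQLFTest in edgeR 4.0.16 (R 4.3.3), with Benjamini-Hochberg adjustment over 15422 genes and a threshold of 0.05. The 95% intervals come from that fit. Scripts were tested on simulated data. CPM per kb divides CPM by the merged exons of GENCODE M21 coding transcripts, whose positions matched the deposited ones for all 50 genes, and coordinates are GRCm38. Values by library are printed, in each role, for the 6 genes with the smallest unadjusted p and the 2 with the highest mean CPM (22 genes in all). In each further list the text names the 3 genes with the smallest p among those with a mean of at least 1 CPM. A few other genes were named for their role. The members and lists were chosen with earlier results of these data known.

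Alternatives were other scaling factors and filters, DESeq2 1.42.0, limma 3.58.1 (voom, and trend on log2 of the normalized signal plus 1 or 0.1), sex as a covariate read from Xist and Y-linked genes (the knockout library DE685 had 3311 and the control DE684 5291 Y-linked reads), and leaving out each library. The columns could be assigned to a genotype but not to a sample title. Nothing in the labels says more of the animals than that the libraries are separate samples, so p-values measure the spread between these samples. The labels name no molecular identifiers, so depth bounds counting error only.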

Additional observations from a re-analysis of the deposited data

How the results depend on the processing

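All 15 alternatives called 0 of the 50 genes and 0 of the other cell cycle genes, with the members' adjusted p from 0.0659 to 0.9997. The median log2 difference of the 50 ranged from -0.079 to 0.092 when each library was left out in turn, that of the regulators from 0.0016 to 0.12, of the replication genes from -0.12 to 0.034, of the mitosis genes from -0.11 to 0.081, of the other regulators from -0.081 to 0.0053, of the other replication genes from -0.092 to 0.015 and of the other mitosis genes from -0.093 to 0.045. The low end came from leaving out DE680 in each of these. Over all genes, leaving out a library gave 65 to 109 higher and 3 to 19 lower calls, with fewer samples. DESeq2 gave 565 higher and 307 lower, so 64.8% higher beside 77.7% with edgeR, and the sex covariate gave 299 and 110; the cause was not tested. At an unadjusted p under 0.05 there were 2 to 7 members without 1 library and 3 with DESeq2. Gli1 and Ptch1 stayed called in every alternative.

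Leaving out 1 library turned the sign of 28 members in at least 1 of 6 fits, in 49 of 300 values, and no call changed. Their log2 differences ranged as follows: Ccne2 -0.15 to 0.090, Ccna2 -0.064 to 0.14, Ccnb1 -0.078 to 0.12, Ccnb2 -0.045 to 0.15, Cdk1 -0.16 to 0.024, Cdk2 -0.012 to 0.087, Cdkn1a -0.093 to 0.091, E2f1 -0.13 to 0.058, E2f3 -0.027 to 0.041, Rbl1 -0.11 to 0.093, Mcm2 -0.011 to 0.15, Mcm3 -0.14 to 0.067, Mcm5 -0.12 to 0.0062, Rrm1 -0.13 to 0.034, Cdc6 -0.16 to 0.075, Cdt1 -0.084 to 0.15, Mki67 -0.21 to 0.065, Aurkb -0.13 to 0.045, Bub1 -0.090 to 0.15, Bub1b -0.092 to 0.14, Plk1 -0.024 to 0.18, Cdc20 -0.12 to 0.085, Cenpe -0.26 to 0.012, Cenpf -0.11 to 0.081, Kif11 -0.15 to 0.14, Kif20a -0.10 to 0.12, Ttk -0.079 to 0.17, Foxm1 -0.10 to 0.13. Among the other 9 settings, 7 of 450 values turned sign, in 5 genes that lay near 0: Ccne2 0.000169 (upper-quartile factors), Ccnb1 0.0029 (limma-voom), Ccnb1 0.00435 (sex covariate), Ccnb1 0.0102 (upper-quartile factors), Cdkn1a 0.00922 (upper-quartile factors), Rbl1 0.00313 (upper-quartile factors), Cenpf -0.00176 (no filter). The cause was not tested.

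No paired analysis was possible because the column names carry no sample title or replicate number of the labels, so the planned replicate block was not run. Neighbouring library tags were not taken as pairs, since no label says that they mark any. Depth limits Cdkn1c most, with a lowest count of 29. With 3 libraries per group, an exact permutation test of a single gene cannot go below p = 0.1.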

Other observations

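Pseudogenes named after some members are listed too, found by name only, and their likeness in sequence was not measured. Ccnb1-ps and Ccnb2-ps, pseudogene copies of the B-type cyclins, held 0 to 5 and 1 to 9 counts per library beside at least 638 and 394 counts for Ccnb1 and Ccnb2. Pcna-ps2 held 4 to 170 counts per library beside at least 1930 for Pcna; the Pcna values are uncertain to that extent. Exons of 16 of the 50 genes overlap exons of a gene on the opposite strand, among them Rb1 with Rcbtb2, Mcm7 with Ap4m1 and Cops6, and Cdkn1c with Gm44732. With Foxm1, whose exons overlap those of Gm44596 and Tex52 on the same strand, 17 of the 50 have an overlap.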
